A study of Mus musculus with 14 samples.

Results

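Mammary tumors of 4 *Lats1*-CKO PyMT mice were compared with tumors of 3 WT-PyMT littermates, which are 7 of the 14 tumor libraries of the study. These libraries are the ones that the labels place in the *Lats1* batch. PyMT mice express the polyomavirus middle T oncogene from the MMTV promoter and develop mammary tumors, and all 7 mice carried it. In the *Lats1*-CKO PyMT mice a floxed *Lats1* allele lost its exon 4 wherever MMTV-Cre, which is active in mammary epithelium, was expressed, so the other cells of a tumor kept an intact gene. The WT-PyMT littermates kept *Lats1* throughout. Mice were sampled at 3 months, and each library came from the tumor of a different mouse. By their labels, *Lats1*-CKO PyMT tumors 14 and 18 were carcinomas, 21 was an adenosquamous carcinoma and 27 was an adenoma, and WT-PyMT tumor 17 was a carcinoma and 20 and 22 were adenomas. The other 7 libraries are 4 *Lats2*-CKO PyMT tumors and 3 WT-PyMT tumors of their own litters, and were used only where a difference between the genotypes was tested and in an alternative fit of all 14 libraries. Values below follow the order 14, 18, 21, 27 for *Lats1*-CKO PyMT and 17, 20, 22 for WT-PyMT tumors.

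LATS1 and LATS2 are the last kinases of the Hippo pathway. Activated by the MST kinases with help from the SAV1 and MOB1 adaptors, they phosphorylate the coactivators YAP and TAZ, which are then held in the cytoplasm or degraded. Unphosphorylated YAP and TAZ enter the nucleus and bind TEAD factors, which recognize a short DNA motif near genes such as *Cyr61* and *Ctgf*. In the mammary gland the pathway is known for its part in keeping luminal and basal cells apart.

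The libraries held 18593864 to 22087344 counts in *Lats1*-CKO PyMT and 23981243 to 25345231 in WT-PyMT tumors, so every *Lats1*-CKO PyMT library was shallower than every WT-PyMT library, and the part of depth in the results was not tested. Levels are CPM, that is, counts relative to library size after scaling the libraries with TMM, and log2 fold changes are *Lats1*-CKO PyMT over WT-PyMT, given ± the standard error of edgeR's fit. A raw or unadjusted p is edgeR's p before adjustment for the number of genes. The median log2 fold change over all 17763 genes was -0.0029. Over the 1000 most variable genes the root-mean-square distance (log2 CPM) was smallest between WT-PyMT 17 and 20 (1.46) and largest between *Lats1*-CKO 21, the adenosquamous tumor, and WT-PyMT 22 (4.33), both of which stood apart from the rest of their group. For many of the gene lists the count or median without 1 of them is given beside that over all 7 tumors. All 7 libraries were rich in the epithelial genes *Epcam* (1070.4, 1089.9, 682 and 768 CPM in *Lats1*-CKO PyMT, against 1081, 1265 and 895 CPM in WT-PyMT tumors) and *Krt18* (831, 805, 719 and 724 CPM in *Lats1*-CKO PyMT tumors, against 773, 918 and 886 CPM in WT-PyMT tumors).

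*Lats1* itself fell in every *Lats1*-CKO PyMT tumor, and *Tead2* and *Lyn* fell with it, while agouti rose. These 4 genes are all that passed edgeR's quasi-likelihood test at an adjusted p under 0.05, 1 higher (0.00563% of 17763 genes) and 3 lower (0.0169%). *Lats1* lies on chromosome 10 from 7681200 to 7716461 of GRCm38. It had 34.4, 36.9, 38.3 and 32.9 CPM in *Lats1*-CKO PyMT tumors, against 128, 123 and 108 CPM in WT-PyMT tumors. The groups were far apart, with little spread within either. The log2 fold change was -1.75 ± 0.09 (adjusted p = 0.00364 by edgeR). Reads from the exons that remain after deletion, and from cells without Cre, are counted in these values too, and in bulk tumor RNA fewer cells of a type and less RNA per cell cannot be told apart. Without WT-PyMT 17 or without WT-PyMT 20 the adjusted p was 0.0640 and 0.0623 by edgeR, at log2 fold changes of -1.68 and -1.72.

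*Tead2*, on chromosome 7 from 45215792 to 45233468, encodes a TEAD factor, through which YAP and TAZ reach DNA. Its level was 73.9, 76.8, 66.7 and 57.1 CPM in *Lats1*-CKO PyMT tumors, against 222, 243 and 187 CPM in WT-PyMT tumors. Every *Lats1*-CKO PyMT tumor was well below the lowest WT-PyMT tumor, whatever its histology. The log2 fold change was -1.66 ± 0.14 (adjusted p = 0.0224 by edgeR and 8.14e-23 by DESeq2). With *Lats2*-CKO it was -0.10. The difference between the genotypes had an unadjusted p of 0.0304 from edgeR's model and was not called after adjustment. *Lyn*, on chromosome 4 from 3678068 to 3791612, encodes a Src-family kinase. Middle T acts by binding some kinases of this family, and whether it binds LYN was not examined here. *Lyn* had 37.3, 44.98, 46.9 and 49.2 CPM in *Lats1*-CKO PyMT tumors, against 107, 96.6 and 99.3 CPM in WT-PyMT tumors, again without overlap (log2 fold change -1.179 ± 0.11, adjusted p = 0.0414 by edgeR). The other 8 measured kinases of the family, with *Src*, *Yes1* and *Fyn* among them, did not pass at a raw p under 0.05. *Src* had 151, 142, 138 and 122 CPM in *Lats1*-CKO PyMT and 168, 147 and 131 CPM in WT-PyMT tumors. By edgeR *Tead2* lost its call without *Lats1*-CKO 14, 18 or 27 (adjusted p of 0.0935, 0.0604 and 0.0568) and without WT-PyMT 17 or 20 (0.245 and 0.108). *Lyn* kept its call only without *Lats1*-CKO 21 (adjusted p = 0.0388 by edgeR), and with any other library left out its adjusted p by edgeR lay between 0.0621 and 0.307.

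Agouti, whose symbol in the files is the single letter a, encodes a secreted antagonist of the melanocortin receptor that sets coat color. It was almost silent in WT-PyMT tumors. It had 5634, 7030, 1886 and 6000 counts in *Lats1*-CKO PyMT tumors, against 2, 3 and 0 counts in WT-PyMT tumors, or 264, 356, 97.3 and 303 CPM against 0.0793, 0.127 and 0 CPM in WT-PyMT tumors. All *Lats1*-CKO PyMT tumors were high, the adenosquamous tumor 21 least so (adjusted p = 0.00996 by edgeR, 5.57e-48 by DESeq2). The adjusted p was 0.0531 without *Lats1*-CKO 27, 0.190 without WT-PyMT 17 and 0.0894 without WT-PyMT 20 by edgeR. No melanocyte gene of 5 measured passed a raw p of 0.05. *Pmel*, a pigment granule protein, had 1.499, 1.98, 1.81 and 1.51 CPM in *Lats1*-CKO PyMT and 2.26, 1.95 and 2.77 CPM in WT-PyMT tumors, and *Dct*, an enzyme of melanin synthesis, was at or below 0.793 CPM in all 7. *Cntn4*, a neuronal cell adhesion gene, had 4.55, 6.69, 1.65 and 4.90 CPM in *Lats1*-CKO PyMT tumors and no count in any WT-PyMT tumor, which is at least 109.1-fold higher when the floor is set at 3 counts over the WT-PyMT group (adjusted p = 4.57e-09 by DESeq2, 0.128 by edgeR).

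**Figure D1:**
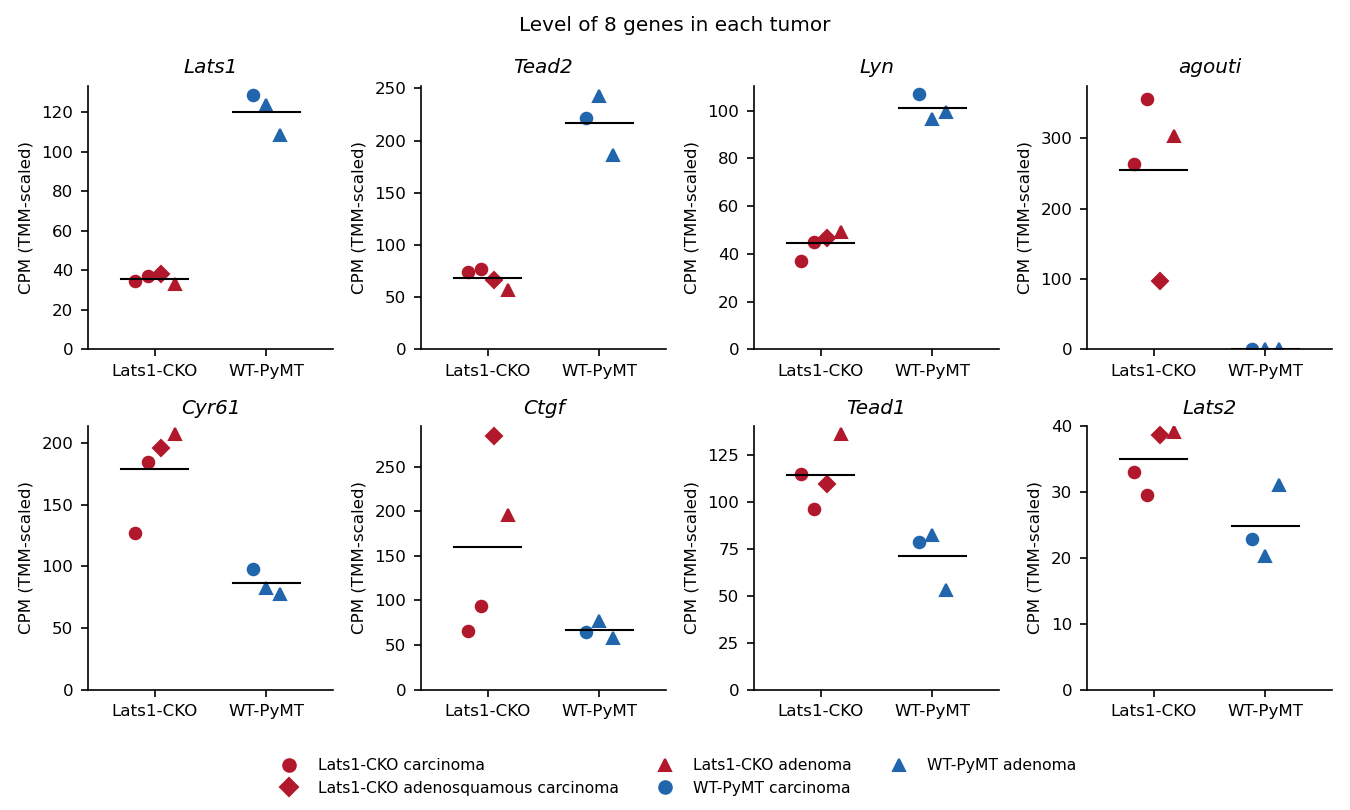
TMM-scaled CPM of 8 genes in each of the 7 tumors, on linear axes from 0, with *Lats1*-CKO PyMT tumors left of WT-PyMT tumors. Points are tumors, their shape gives the histology and the line is the group mean. *Lats1*, *Tead2* and *Lyn* were lower in every *Lats1*-CKO PyMT tumor than in any WT-PyMT tumor, *Cyr61* and *Tead1* were higher in each, and *Ctgf* and *Lats2* overlapped.

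DESeq2, the tool named in the study's methods, called 287 genes higher (1.89% of the 15181 to which it gave an adjusted p) and 299 lower (1.97%) on the same counts. At a raw p under 0.05 edgeR had 846 genes higher (4.76%) and 1169 lower (6.58%). The genes of which every *Lats1*-CKO PyMT tumor lay above every WT-PyMT tumor were 866 (4.88%), and those with all of them below were 1149 (6.47%). Of all 17763 genes, 8808 averaged higher and 8955 lower. These counts and shares of all genes are the background for the counts in the gene lists below. Genes given below with an adjusted p by DESeq2 alone did not pass edgeR's adjusted threshold, which only the 4 genes above did. Genes close to *Lats1* on chromosome 10 were looked at separately. Of 38 measured genes within 5 Mb, 1 was higher and 3 were lower at a raw p under 0.05, *Esr1* among them, and 7.89% did not overlap between the groups, against 11.3% of all 17713 genes placed on the genome.

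Among the next genes in order of p were several with a small spread within both groups. *Rhpn2* had 45.5, 56.5, 41.2 and 43.6 CPM in *Lats1*-CKO PyMT tumors, against 118, 142 and 108 CPM in WT-PyMT tumors (log2 fold change -1.39 ± 0.14, adjusted p = 0.0578 by edgeR and 1.37e-13 by DESeq2). *Rcor2*, a subunit of complexes that repress neuronal genes, had 16.4, 15.4, 13.3 and 16.8 CPM in *Lats1*-CKO PyMT tumors, against 4.40, 4.57 and 3.79 CPM in WT-PyMT tumors (log2 fold change 1.86 ± 0.19, adjusted p = 2.18e-22 by DESeq2). Both separated the genotypes fully, in opposite directions. *G0s2*, an inhibitor of the triglyceride lipase encoded by *Pnpla2*, had 95.5, 82.5, 129 and 68.5 CPM in *Lats1*-CKO PyMT tumors, against 298, 413 and 320.1 CPM in WT-PyMT tumors (log2 fold change -1.87, adjusted p = 3.79e-11 by DESeq2). *Acsl1*, which activates fatty acids as CoA esters, had 83.0, 79.7, 98.1 and 103 CPM in *Lats1*-CKO PyMT tumors, against 232, 175 and 193 CPM in WT-PyMT tumors (log2 fold change -1.13, adjusted p = 2.96e-09 by DESeq2). By edgeR their adjusted p lay between 0.0578 and 0.0763, and they were chosen for their place in this order, after their values were seen.

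In the Hippo pathway itself, *Lats1* was the only kinase or adaptor called lower among 19 measured genes. DESeq2 called *Amotl2* higher, and at a raw p under 0.05 there were 5 members higher and 2 lower, and 2 higher and 1 lower without WT-PyMT 22. *Lats2*, the paralog of *Lats1*, had 33.03, 29.5, 38.7 and 39.1 CPM in *Lats1*-CKO PyMT tumors, against 22.9, 20.4 and 31.2 CPM in WT-PyMT tumors. Most of the *Lats1*-CKO PyMT tumors were above all WT-PyMT tumors, but WT-PyMT 22 overlapped with tumor 18 (log2 fold change 0.50 ± 0.18, unadjusted p = 0.0287 and adjusted p = 0.413 by edgeR). *Wwc1* and *Wwc2*, which encode the scaffold KIBRA and its relative, were higher at raw p of 0.0187 and 0.0338 by edgeR, and *Stk3*, an MST kinase, at 0.0483. *Taok3*, a kinase upstream of MST, had 21.9, 19.7, 18.7 and 16.96 CPM in *Lats1*-CKO PyMT and 25.4, 22.6 and 39.2 CPM in WT-PyMT tumors. The core adaptors did not differ beyond their spread. *Sav1* had 61.1, 62.9, 68.8 and 64.5 CPM in *Lats1*-CKO PyMT and 60.7, 66.9 and 60.8 CPM in WT-PyMT tumors, and *Nf2*, which encodes Merlin, had 150.3, 115, 132 and 157 CPM in *Lats1*-CKO PyMT tumors and 136, 144 and 124 CPM in WT-PyMT tumors.

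Among the coactivators and their DNA-binding partners, the TEAD genes parted. Where *Tead2* fell, *Tead1* had 115, 96.3, 109.6 and 136 CPM in *Lats1*-CKO PyMT tumors, against 78.5, 82.1 and 53.1 CPM in WT-PyMT tumors, with no overlap (log2 fold change 0.68 ± 0.18, adjusted p = 0.0260 by DESeq2 and 0.288 by edgeR). *Tead3* had a log2 fold change of 0.07 ± 0.12 and *Tead4* one of 0.75 ± 0.35. *Yap1* had 244, 226, 273 and 225 CPM in *Lats1*-CKO PyMT and 253, 241 and 203 CPM in WT-PyMT tumors, which did not exceed the spread between tumors (log2 fold change 0.06 ± 0.11). *Wwtr1*, which encodes TAZ, had 132, 137, 124 and 122 CPM in *Lats1*-CKO PyMT tumors, against 112, 121 and 77.5 CPM in WT-PyMT tumors (log2 fold change 0.31 ± 0.15, unadjusted p = 0.0788 by edgeR).

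Target genes of YAP and TAZ were mostly higher in *Lats1*-CKO PyMT tumors. Of 27 measured targets DESeq2 called 9 higher and 1 lower, at a raw p under 0.05 there were 13 higher and 2 lower, and 10 lay above all WT-PyMT tumors in every *Lats1*-CKO PyMT tumor and 1 below. None passed edgeR's adjusted threshold. *Lats2* and *Amotl2* are members of this list and of the Hippo list above, and are counted in both. The median log2 fold change of the list was 0.55, and it was 0.43 without *Lats1*-CKO 21, with 11 higher and 3 lower, and 0.59 without WT-PyMT 22. The list's mean in log2 CPM was 4.79, 4.98, 5.59 and 5.34 in *Lats1*-CKO PyMT tumors, against 4.71, 4.60 and 4.76 in WT-PyMT tumors, so the carcinomas 14 and 18 were only slightly above WT-PyMT tumors and tumors 21 and 27 clearly so.

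Promoters of 3 of these targets are shown because they carry the motif that TEAD factors bind and belong to genes that were higher without overlap. They run from 250 bases before to 50 bases after the start of the gene, in the direction of transcription, with GGAATG or its reverse complement CATTCC in capitals. *Cyr61* was read from chr3:145649936-145650235 (minus strand), *Amotl2* from chr9:102717554-102717853 (plus strand) and *Ajuba* from chr14:54577612-54577911 (minus strand) of GRCm38.p6, from RefSeq.
Cyr61: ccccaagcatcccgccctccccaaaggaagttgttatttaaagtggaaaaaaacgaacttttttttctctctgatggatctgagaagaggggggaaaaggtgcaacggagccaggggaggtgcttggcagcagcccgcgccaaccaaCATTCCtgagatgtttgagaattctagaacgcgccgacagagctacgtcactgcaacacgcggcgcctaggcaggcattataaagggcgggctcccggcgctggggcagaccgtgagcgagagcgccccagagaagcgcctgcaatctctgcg
Amotl2: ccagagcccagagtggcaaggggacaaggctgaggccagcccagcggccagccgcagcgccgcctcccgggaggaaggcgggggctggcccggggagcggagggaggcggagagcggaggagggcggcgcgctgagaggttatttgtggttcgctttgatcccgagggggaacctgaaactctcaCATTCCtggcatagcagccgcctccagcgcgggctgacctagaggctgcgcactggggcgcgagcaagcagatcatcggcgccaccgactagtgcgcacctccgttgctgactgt
Ajuba: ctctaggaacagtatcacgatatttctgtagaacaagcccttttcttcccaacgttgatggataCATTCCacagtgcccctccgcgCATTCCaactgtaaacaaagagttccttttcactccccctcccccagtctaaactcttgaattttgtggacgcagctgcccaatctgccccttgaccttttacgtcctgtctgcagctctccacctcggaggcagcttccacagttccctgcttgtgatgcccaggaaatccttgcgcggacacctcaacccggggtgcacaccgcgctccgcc
The motif begins at base 148 of the *Cyr61* sequence, at base 186 of *Amotl2* and at bases 65 and 87 of *Ajuba*. Of 20 targets with a promoter of this length, 9 held the motif on either strand, and of 10 such targets that were higher at a raw p under 0.05, 5 did. The motif occurs in a promoter of 16.6% of all 27025 genes with one, or in 14.7% of 32851 promoters, and a match describes these letters, not binding.

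*Cyr61*, which encodes a secreted matrix protein, had 128, 185, 196 and 208 CPM in *Lats1*-CKO PyMT tumors, against 98.2, 82.8 and 77.6 CPM in WT-PyMT tumors. Every *Lats1*-CKO PyMT tumor was higher, the carcinoma 14 least (log2 fold change 1.05 ± 0.18, adjusted p = 3.78e-05 by DESeq2 and 0.169 by edgeR). *Amotl2*, an angiomotin that binds YAP, had 57.4, 61.9, 76.5 and 68.3 CPM in *Lats1*-CKO PyMT tumors, against 49.3, 44.8 and 44.8 CPM in WT-PyMT tumors, a small difference (log2 fold change 0.51 ± 0.12) that exceeded a still smaller spread (adjusted p = 0.00939 by DESeq2). *Ajuba*, a LIM protein that binds LATS kinases, had 45.5, 38.2, 70.4 and 50.3 CPM in *Lats1*-CKO PyMT and 33.3, 31.4 and 25.7 CPM in WT-PyMT tumors (log2 fold change 0.76, adjusted p = 0.0444 by DESeq2).

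Other targets had larger differences. *Ddah1*, which breaks down an inhibitor of nitric oxide synthesis, had 54.4, 71.6, 38.9 and 63.5 CPM in *Lats1*-CKO PyMT tumors, against 27.4, 17.1 and 19.8 CPM in WT-PyMT tumors (log2 fold change 1.41 ± 0.25, adjusted p = 2.93e-05 by DESeq2). *Igfbp3*, a binding protein of insulin-like growth factors, had 75.4, 143, 295 and 124 CPM in *Lats1*-CKO PyMT tumors, against 34.3, 31.5 and 44.8 CPM in WT-PyMT tumors, and *Lats1*-CKO 21 was the highest (log2 fold change 2.11 ± 0.45, adjusted p = 1.12e-04 by DESeq2).

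The classical target *Ctgf*, a secreted relative of *Cyr61*, split the *Lats1*-CKO PyMT tumors. It had 65.7, 93.5, 284 and 196 CPM in them, against 64.3, 77.3 and 57.4 CPM in WT-PyMT tumors, so tumors 21 and 27 were high and the carcinomas 14 and 18 were near the WT-PyMT range (log2 fold change 1.269 ± 0.49, unadjusted p = 0.0351 and adjusted p = 0.422 by edgeR). *Areg*, a ligand of the EGF receptor, went the other way, with 4.22, 3.45, 4.69 and 2.73 CPM in *Lats1*-CKO PyMT tumors, against 10.6, 5.88 and 10.9 CPM in WT-PyMT tumors (log2 fold change -1.2702 ± 0.32, adjusted p = 0.0107 by DESeq2). *Axl* (log2 fold change 0.03 ± 0.34) and *Ankrd1* (0.76 ± 1.01) did not differ beyond their spread.

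**Figure D2:**
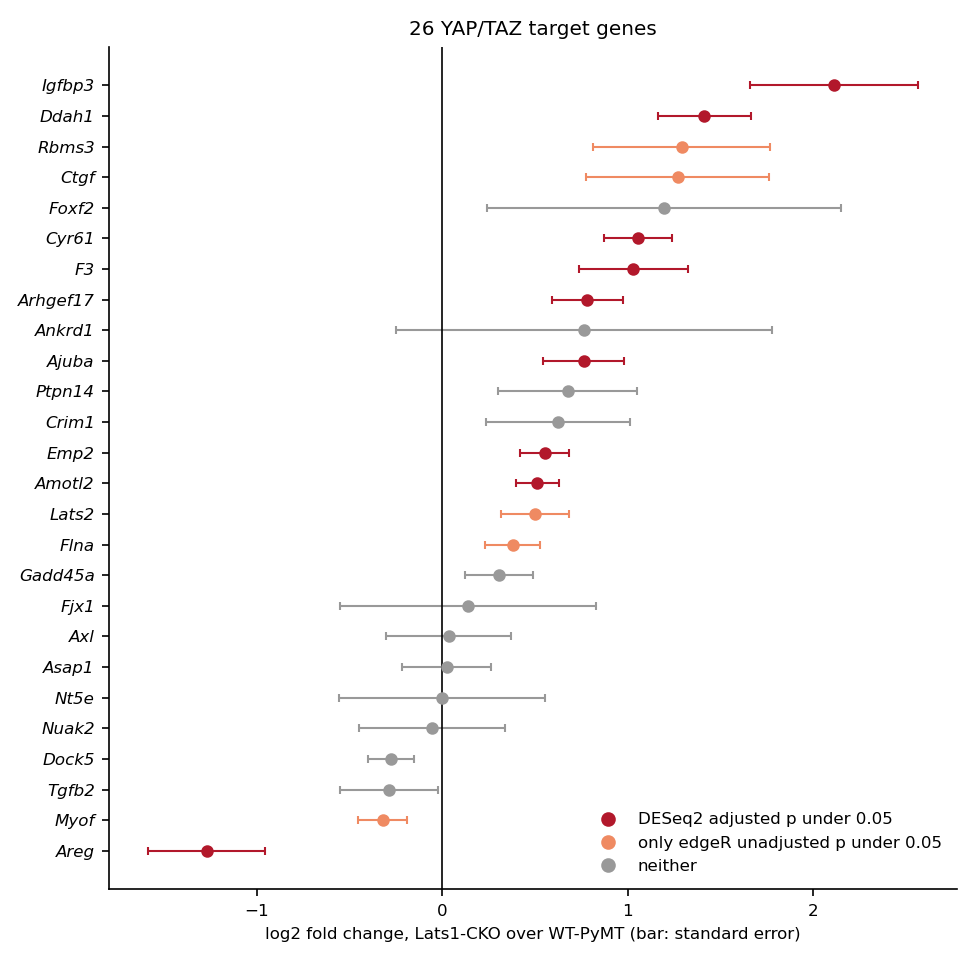
Log2 fold change of 26 of the 27 YAP/TAZ target genes, *Lats1*-CKO PyMT over WT-PyMT (4 against 3 tumors), with the standard error of edgeR's fit as bars. Dark points had an adjusted p under 0.05 by DESeq2, light ones only a raw p under 0.05 by edgeR and grey ones neither. Of the 26 genes, 20 were above 0 and 6 below.

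Genes of hormone-sensing luminal cells were lower. Of 18 measured, 10 were lower and 1 higher at a raw p under 0.05, with a median log2 fold change of -0.73, and DESeq2 called only *Areg* lower and *Greb1* higher. Without WT-PyMT 22 the count was 3 lower and 1 higher, at a median of -0.57. *Esr1*, which encodes the estrogen receptor, had 2.91, 8.57, 4.44 and 7.72 CPM in *Lats1*-CKO PyMT tumors, against 11.6, 11.3 and 18.7 CPM in WT-PyMT tumors. All *Lats1*-CKO PyMT tumors were lower, the carcinoma 14 and the adenosquamous tumor 21 most (log2 fold change -1.23 ± 0.41, unadjusted p = 0.0193 and adjusted p = 0.383 by edgeR, adjusted p = 0.101 by DESeq2).

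Other members pointed the same way at low levels. *Pgr*, the progesterone receptor, had 0.281, 2.13, 0.929 and 0.757 CPM in *Lats1*-CKO PyMT and 2.14, 5.55 and 1.996 CPM in WT-PyMT tumors, which overlap (log2 fold change -1.65 ± 0.69, unadjusted p = 0.0470 by edgeR). *Foxa1*, a factor that opens chromatin for the estrogen receptor, had 0.937, 5.02, 0.980 and 3.38 CPM in *Lats1*-CKO PyMT tumors, against 5.75, 6.31 and 9.73 CPM in WT-PyMT tumors (log2 fold change -1.49 ± 0.63, unadjusted p = 0.0495 by edgeR). *Gata3*, a luminal transcription factor at much higher levels, had 217, 257, 165 and 173 CPM in *Lats1*-CKO PyMT tumors, against 294, 326 and 249.9 CPM in WT-PyMT tumors (log2 fold change -0.51 ± 0.18, unadjusted p = 0.0214 by edgeR). *Greb1*, known as a gene that estrogen induces, was the exception, with 2.72, 2.79, 4.13 and 1.211 CPM in *Lats1*-CKO PyMT tumors, against 0.238, 0.381 and 0.285 CPM in WT-PyMT tumors (log2 fold change 3.15 ± 0.52, adjusted p = 3.42e-05 by DESeq2).

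Luminal progenitor genes were lower in 4 of 15 and higher in none at a raw p under 0.05. *Kcnn4*, a calcium-activated potassium channel, had 397, 369, 363 and 248 CPM in *Lats1*-CKO PyMT tumors, against 567, 713 and 692 CPM in WT-PyMT tumors, without overlap (log2 fold change -0.93 ± 0.18, adjusted p = 1.62e-04 by DESeq2). *Itgb3*, the integrin subunit by which these cells are sorted, had 63.2, 83.3, 63.5 and 90.5 CPM in *Lats1*-CKO PyMT tumors, against 105, 133 and 103 CPM in WT-PyMT tumors (log2 fold change -0.60 ± 0.17, adjusted p = 0.0561 by DESeq2). The progenitor factors *Elf5* and *Kit* did not differ beyond their spread (log2 fold changes of -0.21 ± 0.22 and 0.02 ± 0.26).

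Of 12 milk protein genes 3 were lower and none higher at a raw p under 0.05. *Glycam1*, a mucin secreted in milk, had 9.93, 0.862, 4.33 and 5.45 CPM in *Lats1*-CKO PyMT tumors, against 211, 39.1 and 519 CPM in WT-PyMT tumors (log2 fold change -5.63 ± 1.02, adjusted p = 1.26e-05 by DESeq2). The caseins ranged widely within both groups, *Csn2* with 837, 28.8, 963 and 46.5 CPM in *Lats1*-CKO PyMT and 3074, 1243 and 628 CPM in WT-PyMT tumors.

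Of 21 measured basal and myoepithelial genes 18 averaged higher and 3 lower. At a raw p under 0.05, 3 were higher and 1 lower, and the median log2 fold change of 0.70 was 0.28 without *Lats1*-CKO 21. The list's mean was 4.70, 5.30, 6.26 and 6.18 log2 CPM in *Lats1*-CKO PyMT tumors, against 5.48, 5.001 and 5.44 log2 CPM in WT-PyMT tumors. Only tumors 21 and 27 were thus above the WT-PyMT range, while the carcinoma 14 was below it and the carcinoma 18 within it. The subunits of a basement membrane integrin went apart. *Itga6* had 714, 604, 689 and 734 CPM in *Lats1*-CKO PyMT tumors, against 514, 405 and 337 CPM in WT-PyMT tumors (log2 fold change 0.71 ± 0.16, adjusted p = 0.00177 by DESeq2). *Itgb4*, which pairs with *Itga6*, was lower, with 86.1, 121, 146 and 101 CPM in *Lats1*-CKO PyMT tumors, against 261, 226 and 199 CPM in WT-PyMT tumors (log2 fold change -1.01 ± 0.19, adjusted p = 4.27e-04 by DESeq2).

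The basal keratins were high in the adenosquamous tumor alone. *Krt14* had 114, 53.2, 652 and 90.1 CPM in *Lats1*-CKO PyMT tumors, against 104, 119 and 47.2 CPM in WT-PyMT tumors, so that tumors 14, 18 and 27 lay within or near the WT-PyMT range (log2 fold change 1.34 ± 0.90, adjusted p = 0.588 by edgeR). *Krt5* had 59.98, 97.9, 510.3 and 70.7 CPM in *Lats1*-CKO PyMT and 152, 116 and 70.7 CPM in WT-PyMT tumors. *Acta2*, the smooth muscle actin of myoepithelium and of other contractile cells, was highest in the adenoma 27, with 41.3, 109, 165 and 597 CPM in *Lats1*-CKO PyMT and 102, 56.6 and 199 CPM in WT-PyMT tumors.

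Squamous genes repeated this pattern more sharply. The mean of 30 measured genes of squamous and cornified epithelium was 0.36, 0.60, 4.68 and 0.38 log2 CPM in *Lats1*-CKO PyMT tumors, against 1.74, 0.58 and 0.61 log2 CPM in WT-PyMT tumors, and their median log2 fold change of 1.83 became -0.85 without tumor 21. In that fit 2 members were higher and 6 lower at a raw p under 0.05, whereas 4 were higher and 1 lower in all 7 tumors. *Krt6a*, a keratin of activated keratinocytes, had 0.0469, 0.254, 141 and 0 CPM in *Lats1*-CKO PyMT and 1.269, 0.423 and 0.122 CPM in WT-PyMT tumors. Hair follicle genes were by far the highest in tumor 21. Their list summed to 1371 CPM there, to 51.7 CPM in WT-PyMT 22 and to 2.53 to 7.92 CPM in the other tumors. *Tchh*, trichohyalin of the inner root sheath, had 0.515, 0.659, 809 and 0.757 CPM in *Lats1*-CKO PyMT and 1.269, 1.65 and 0.652 CPM in WT-PyMT tumors, and *Krt73* had 0, 0, 307 and 0 CPM in *Lats1*-CKO PyMT tumors and 0.0793, 0.0423 and 0.0407 CPM in WT-PyMT tumors.

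The squamous list also holds desmosomal genes, and the 2 members that DESeq2 called, both of desmosomes, were higher in all 4 *Lats1*-CKO PyMT tumors. *Dsp*, desmoplakin, had 183, 230.3, 214 and 99.1 CPM in *Lats1*-CKO PyMT tumors, against 62.8, 27.9 and 25.9 CPM in WT-PyMT tumors, and both carcinomas were about as high as the adenosquamous tumor (log2 fold change 2.22 ± 0.42, adjusted p = 7.37e-06 by DESeq2). *Pkp1*, plakophilin, had 21.4, 26.0, 113 and 49.4 CPM in *Lats1*-CKO PyMT tumors, against 16.4, 15.7 and 10.997 CPM in WT-PyMT tumors (log2 fold change 1.87 ± 0.60, adjusted p = 0.0259 by DESeq2).

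The study's lists on tumor subtype were read in the same way. Of 212 measured genes that are higher in estrogen receptor-negative PyMT cells, DESeq2 called 21 higher and 1 lower, and 41 were higher and 3 lower at a raw p under 0.05, or 40 and 6 without *Lats1*-CKO 21 and 27 and 1 without WT-PyMT 22. Of 204 measured genes that are lower in such cells, 36 were lower and 4 higher, and DESeq2 called 17 lower and none higher. Their median log2 fold change was -0.03, with 38 lower and 15 higher without *Lats1*-CKO 21, and 25 lower and 1 higher, at a median of 0.08, without WT-PyMT 22. Of 552 genes that are lower in mature luminal cells than in mammary stem cells, 76 were higher and 27 lower, or 59 and 17 without WT-PyMT 22. Of 1133 genes higher in human basal tumors, 113 were higher and 88 lower, at a median of 0.12 that was -0.03 without *Lats1*-CKO 21, and without WT-PyMT 22 the counts were 84 and 55. In a second such list of 311 genes 32 were higher and 21 lower, at a median of 0.11 that was -0.02 without *Lats1*-CKO 21, and without WT-PyMT 22 the counts were 23 and 11. A further 15-gene basal signature had 14 members called higher by DESeq2 and none lower, but it was chosen with the calls in these tumors, so its direction is no independent evidence. Its mean was 4.85, 4.81, 5.04 and 4.73 log2 CPM in *Lats1*-CKO PyMT tumors, against 3.61, 3.495 and 3.67 log2 CPM in WT-PyMT tumors. *Krt23*, a keratin in that signature, had 35.1, 48.4, 57.3 and 36.5 CPM in *Lats1*-CKO PyMT and 14.2, 10.8 and 18.7 CPM in WT-PyMT tumors (log2 fold change 1.61 ± 0.26, adjusted p = 1.74e-06 by DESeq2).

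**Figure D3:**
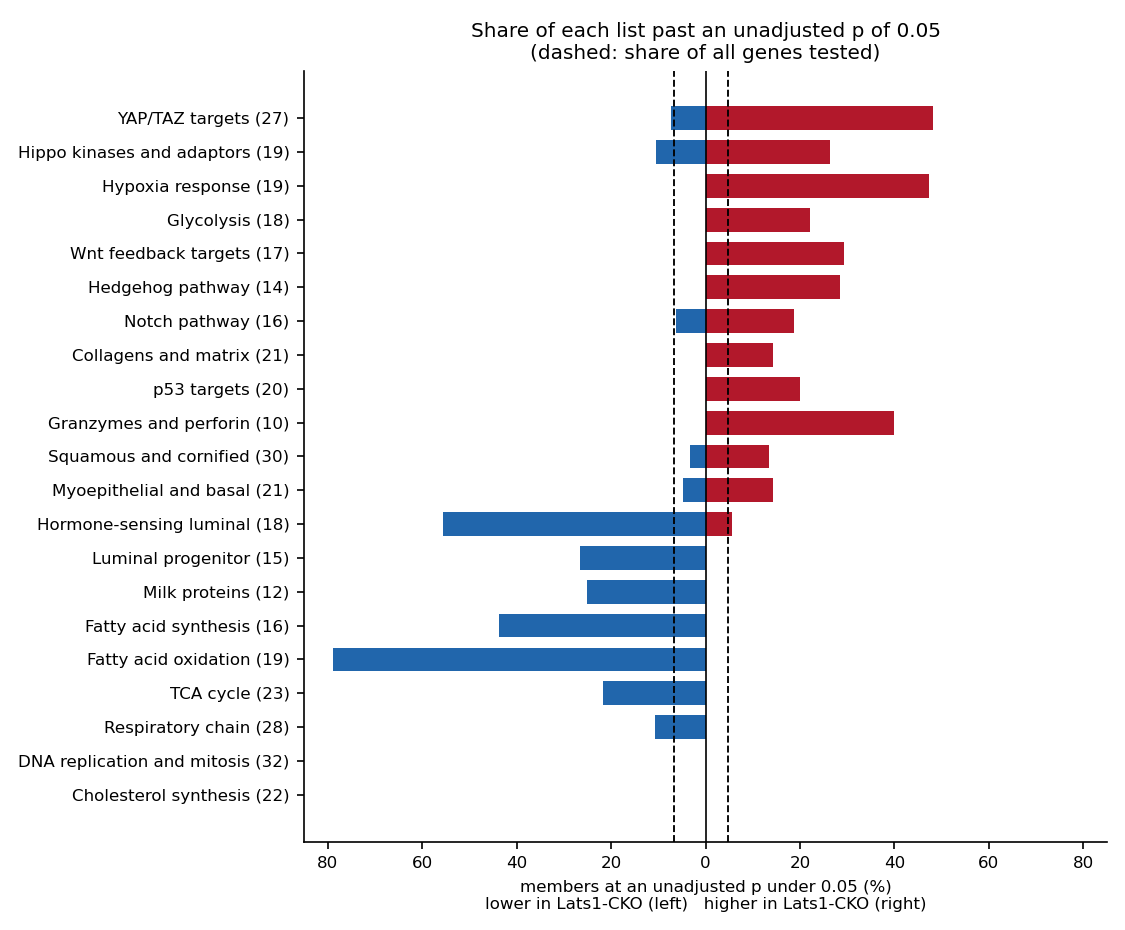
Share of the measured members of 21 gene lists at a raw p under 0.05 by edgeR, in percent, with members lower in *Lats1*-CKO PyMT tumors to the left and higher ones to the right of 0. Numbers in brackets are measured members, and dashed lines give the shares of all 17763 genes (6.58% lower, 4.76% higher). YAP/TAZ targets and hypoxia genes stand out on the right, fatty acid oxidation and hormone-sensing genes on the left, and the mitosis and cholesterol lists have no member on either side.

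Of 17 measured Wnt feedback and target genes, 5 were higher and none lower at a raw p under 0.05, but the median log2 fold change of 1.90 was -0.02 without *Lats1*-CKO 21, with 3 higher and 1 lower. In that tumor several feedback inhibitors were far above the rest. *Axin2* had 2.25, 1.77, 167 and 4.74 CPM in *Lats1*-CKO PyMT and 6.15, 5.29 and 11.4 CPM in WT-PyMT tumors, and *Notum*, an enzyme that inactivates Wnt proteins, had 0.0937, 0.101, 35.7 and 0 CPM in *Lats1*-CKO PyMT tumors and 0, 0.0847 and 0.0407 CPM in WT-PyMT tumors. *Lgr5*, a receptor of R-spondins and a stem cell marker, was higher in all *Lats1*-CKO PyMT tumors, with 27.1, 6.49, 7.43 and 15.3 CPM in *Lats1*-CKO PyMT tumors, against 0.793, 1.91 and 1.181 CPM in WT-PyMT tumors. The carcinoma 14 was the highest (log2 fold change 3.44 ± 0.64, adjusted p = 2.21e-06 by DESeq2). With *Lats2*-CKO the log2 fold change was 0.83. The difference between the genotypes had an unadjusted p of 0.0271 from edgeR's model and was not called after adjustment. *Wif1*, a secreted Wnt inhibitor, had 9.32, 24.6, 61.9 and 17.2 CPM in *Lats1*-CKO PyMT and 6.70, 3.09 and 4.77 CPM in WT-PyMT tumors (log2 fold change 2.54 ± 0.68, adjusted p = 0.00236 by DESeq2).

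Some genes of the Notch and Hedgehog pathways were higher as well, by less. In the Notch list 3 of 16 genes were called higher by DESeq2. *Hes1*, a Notch target, had 48.8, 62.9, 30.1 and 57.3 CPM in *Lats1*-CKO PyMT tumors, against 28.9, 27.2 and 23.2 CPM in WT-PyMT tumors (log2 fold change 0.91 ± 0.25, adjusted p = 0.0220 by DESeq2). The ligand *Dll1* had 60.1, 111, 24.2 and 42.5 CPM in *Lats1*-CKO PyMT tumors, against 19.7, 22.6 and 12.5 CPM in WT-PyMT tumors (log2 fold change 1.70 ± 0.51, adjusted p = 0.0161 by DESeq2). The list's median log2 fold change of 0.17 was -0.07 without *Lats1*-CKO 18. In the Hedgehog list 4 of 14 genes were higher and none lower at a raw p under 0.05. *Ptch1*, the receptor and a target, had 19.4, 23.8, 30.4 and 20.7 CPM in *Lats1*-CKO PyMT and 16.9, 12.7 and 12.4 CPM in WT-PyMT tumors (log2 fold change 0.75, adjusted p = 0.0344 by DESeq2). The ligand *Shh* was found in tumor 21 only, at 0, 0, 22.3 and 0 CPM in *Lats1*-CKO PyMT tumors, and had no count in WT-PyMT tumors.

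Ligands of the EGF receptor family differed in both directions. *Hbegf* was higher, with 19.6, 9.48, 15.7 and 13.6 CPM in *Lats1*-CKO PyMT tumors, against 6.23, 6.73 and 5.05 CPM in WT-PyMT tumors (log2 fold change 1.28 ± 0.28, adjusted p = 0.00121 by DESeq2). *Egf* was lower, with 3.65, 11.8, 3.10 and 3.13 CPM in *Lats1*-CKO PyMT tumors, against 23.1, 20.3 and 18.5 CPM in WT-PyMT tumors (log2 fold change -1.93 ± 0.51, adjusted p = 0.0111 by DESeq2), as was *Areg*. The receptors *Egfr*, *Erbb2* and *Erbb3* had log2 fold changes of 0.36, 0.33 and -0.26, none past a raw p of 0.05.

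By edgeR none of 32 DNA replication and mitosis genes differed at a raw p under 0.05 in either direction, DESeq2 called none, and their median log2 fold change was 0.00. *Mki67*, a marker of cycling cells, had 418, 379, 575 and 417 CPM in *Lats1*-CKO PyMT and 523, 529 and 345 CPM in WT-PyMT tumors. Of 20 targets of p53, 4 were higher and none lower at a raw p under 0.05, and 2 were higher without WT-PyMT 22. *Cdkn1a*, the p21 gene that halts the cell cycle, had 120.4, 41.2, 125 and 79.2 CPM in *Lats1*-CKO PyMT tumors, against 19.99, 26.0 and 39.2 CPM in WT-PyMT tumors, all of which were lower (log2 fold change 1.69 ± 0.42, adjusted p = 0.00229 by DESeq2).

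Genes of the hypoxia response were higher in *Lats1*-CKO PyMT tumors. Of 19 measured, 9 were higher and none lower at a raw p under 0.05, DESeq2 called 7 higher, and the median log2 fold change was 0.64. It was 0.39 without *Lats1*-CKO 21, with the same count of 9. *Vegfa*, which encodes the main growth factor of blood vessels, had 111, 188, 161 and 145 CPM in *Lats1*-CKO PyMT tumors, against 69.1, 51.1 and 54.7 CPM in WT-PyMT tumors. Every *Lats1*-CKO PyMT tumor was well above the WT-PyMT range (log2 fold change 1.38 ± 0.20, adjusted p = 9.04e-08 by DESeq2 and 0.128 by edgeR).

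*Car9*, a carbonic anhydrase that exports acid, had 36.2, 147, 34.98 and 77.4 CPM in *Lats1*-CKO PyMT tumors, against 12.5, 11.98 and 8.43 CPM in WT-PyMT tumors, and was highest in the carcinoma 18 (log2 fold change 2.75 ± 0.57, adjusted p = 1.55e-05 by DESeq2). *Egln3*, an oxygen-sensing prolyl hydroxylase, had 220.0, 475, 198 and 256 CPM in *Lats1*-CKO PyMT tumors, against 93.2, 102 and 119 CPM in WT-PyMT tumors (log2 fold change 1.46 ± 0.32, adjusted p = 3.91e-04 by DESeq2). *P4ha1* and *P4ha2*, which hydroxylate collagen, and the vasodilator peptide gene *Adm* were also called higher by DESeq2 (log2 fold changes of 1.36, 1.39 and 2.68). Endothelial genes did not go with *Vegfa*: of 15 measured, 4 were lower and none higher at a raw p under 0.05, with a median log2 fold change of -0.44. The count was 7 lower without *Lats1*-CKO 21, at a median of -0.65, 2 without WT-PyMT 22, at a median of -0.19, and 1 with the adipocyte mean as covariate. *Cdh5*, the cadherin of endothelial junctions, had 27.9, 35.4, 53.4 and 34.3 CPM in *Lats1*-CKO PyMT and 47.2, 44.5 and 51.6 CPM in WT-PyMT tumors.

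In energy metabolism the median log2 fold change of 18 glycolysis genes was 0.27, with 4 higher and none lower at a raw p under 0.05. *Slc16a3*, the lactate exporter MCT4, had 6.04, 9.38, 49.4 and 20.8 CPM in *Lats1*-CKO PyMT tumors, against 1.55, 2.03 and 1.87 CPM in WT-PyMT tumors, and tumor 21 was far the highest (log2 fold change 3.55 ± 0.78, adjusted p = 3.26e-05 by DESeq2). Of 23 genes of the TCA cycle 5 were lower and none higher, at a median of -0.18, and 22 of them averaged lower. *Pcx*, pyruvate carboxylase, was called lower by DESeq2, with 84.4, 85.9, 62.8 and 78.1 CPM in *Lats1*-CKO PyMT and 119.7, 98.6 and 153 CPM in WT-PyMT tumors (log2 fold change -0.67, adjusted p = 0.0248). Of 28 nuclear genes of the respiratory chain 3 were lower and none higher, at a median of -0.16. A share of 3 in 28 is not far from the 6.58% of all genes that were lower. Of the 28, 26 averaged lower, against 8955 of all 17763 genes, and 6 were lower without overlap, against 6.47% of all genes. The list's mean was 6.98, 6.66, 6.99 and 6.83 log2 CPM in *Lats1*-CKO PyMT tumors, against 7.02, 7.05 and 7.03 log2 CPM in WT-PyMT tumors. Tumors 14 and 21 were thus only slightly below WT-PyMT tumors, and the carcinoma 18 was the lowest. In a fit with the mean of the adipocyte list as covariate neither of these mitochondrial lists had a gene at a raw p under 0.05 by edgeR. The TCA cycle median was then -0.16 and the respiratory chain median -0.07. The deleted gene *Lats1* also lost its call in that fit (adjusted p = 0.0687 by edgeR).

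Fatty acid oxidation had the largest share of lower genes among the 6 metabolic lists. Of 19 measured genes 15 were lower and none higher at a raw p under 0.05, DESeq2 called 3 lower, 10 did not overlap, and the median log2 fold change was -0.37. The count was 15 without WT-PyMT 22 and 12 without *Lats1*-CKO 21, but 4, at a median of -0.41, with the mean of the adipocyte list as a covariate. *Acadm*, the dehydrogenase for medium-chain fatty acids, had 99.4, 102, 112 and 92.1 CPM in *Lats1*-CKO PyMT tumors, against 178, 145 and 134 CPM in WT-PyMT tumors, with a narrow range in *Lats1*-CKO PyMT tumors (log2 fold change -0.59 ± 0.12, adjusted p = 0.00290 by DESeq2). *Acaa2*, a mitochondrial thiolase, had 95.4, 85.7, 124 and 92.5 CPM in *Lats1*-CKO PyMT tumors, against 185, 149 and 136 CPM in WT-PyMT tumors (log2 fold change -0.66 ± 0.16, adjusted p = 0.0177 by DESeq2), and *Ehhadh*, a peroxisomal enzyme, had 24.2, 26.4, 26.7 and 19.8 CPM in *Lats1*-CKO PyMT tumors, against 43.3, 35.7 and 33.9 CPM in WT-PyMT tumors (log2 fold change -0.63, adjusted p = 0.0122 by DESeq2).

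Of 16 fatty acid synthesis genes 7 were lower and none higher at a raw p under 0.05, at a median of -0.77. Without *Lats1*-CKO 21 there were 11 lower and 1 higher, without WT-PyMT 22 4 lower, and with the adipocyte mean as covariate 2 lower. *Elovl6*, an elongase, had 72.5, 64.4, 70.8 and 88.3 CPM in *Lats1*-CKO PyMT tumors, against 133, 103 and 124 CPM in WT-PyMT tumors (log2 fold change -0.70 ± 0.14, adjusted p = 0.00152 by DESeq2). *Fasn*, the synthase itself, had 379.5, 509, 863 and 468 CPM in *Lats1*-CKO PyMT and 1478, 625 and 1314 CPM in WT-PyMT tumors, where tumor 21 and WT-PyMT 20 overlapped (log2 fold change -1.04 ± 0.37, unadjusted p = 0.0243 by edgeR). None of 22 cholesterol synthesis genes differed at a raw p under 0.05 by edgeR or was called by DESeq2. Genes of the PPAR signaling list of the study were lower in 17 of 40 and higher in none, at a median of -0.64. Of 55 measured PPARg target genes from the study 13 were lower and 5 higher, at a median of -0.90, and with the adipocyte mean as covariate 9 were lower and 7 higher, at a median of -0.03. *Pparg*, the receptor that drives fat cell formation, had 1.41, 0.862, 1.03 and 5.401 CPM in *Lats1*-CKO PyMT tumors, against 9.60, 7.71 and 15.8 CPM in WT-PyMT tumors (log2 fold change -2.34 ± 0.69, adjusted p = 0.0282 by DESeq2).

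These metabolic differences went along with fewer fat cell transcripts. All 18 adipocyte genes averaged lower, 6 of them at a raw p under 0.05 and 12 without overlap, with a median log2 fold change of -2.45. The list summed to 347 to 1366 CPM in *Lats1*-CKO PyMT and 1741 to 3271 CPM in WT-PyMT tumors. Its mean was 2.163, 0.11, 2.41 and 5.19 log2 CPM in *Lats1*-CKO PyMT tumors, against 5.78, 5.46 and 6.55 log2 CPM in WT-PyMT tumors, and only the adenoma 27 was near the WT-PyMT range. Without it the median was -4.65. *Adipoq*, the fat cell hormone adiponectin, had 3.09, 0.0507, 2.06 and 45.4 CPM in *Lats1*-CKO PyMT and 44.2, 44.96 and 122 CPM in WT-PyMT tumors, and *Plin1*, which coats lipid droplets, had 0.703, 0, 0.258 and 15.5 CPM in *Lats1*-CKO PyMT tumors and 27.8, 17.2 and 46.7 CPM in WT-PyMT tumors. *Pnpla2*, which starts the breakdown of stored fat and is also expressed outside fat cells, was lower with less spread, at 153, 176, 137 and 137 CPM in *Lats1*-CKO PyMT tumors, against 241, 250.2 and 254 CPM in WT-PyMT tumors (log2 fold change -0.72 ± 0.11, adjusted p = 6.67e-07 by DESeq2). Brown fat transcripts were uneven, with *Ucp1*, the uncoupling protein that defines them, at 0.0469, 0.152, 0.258 and 10.7 CPM in *Lats1*-CKO PyMT and 174, 42.3 and 8.96 CPM in WT-PyMT tumors. In a fit with the adipocyte mean as covariate the PPAR signaling list had 6 genes lower and 1 higher, at a median of -0.36, and YAP/TAZ targets had 13 higher and 1 lower, at a median of 0.86.

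**Figure D4:**
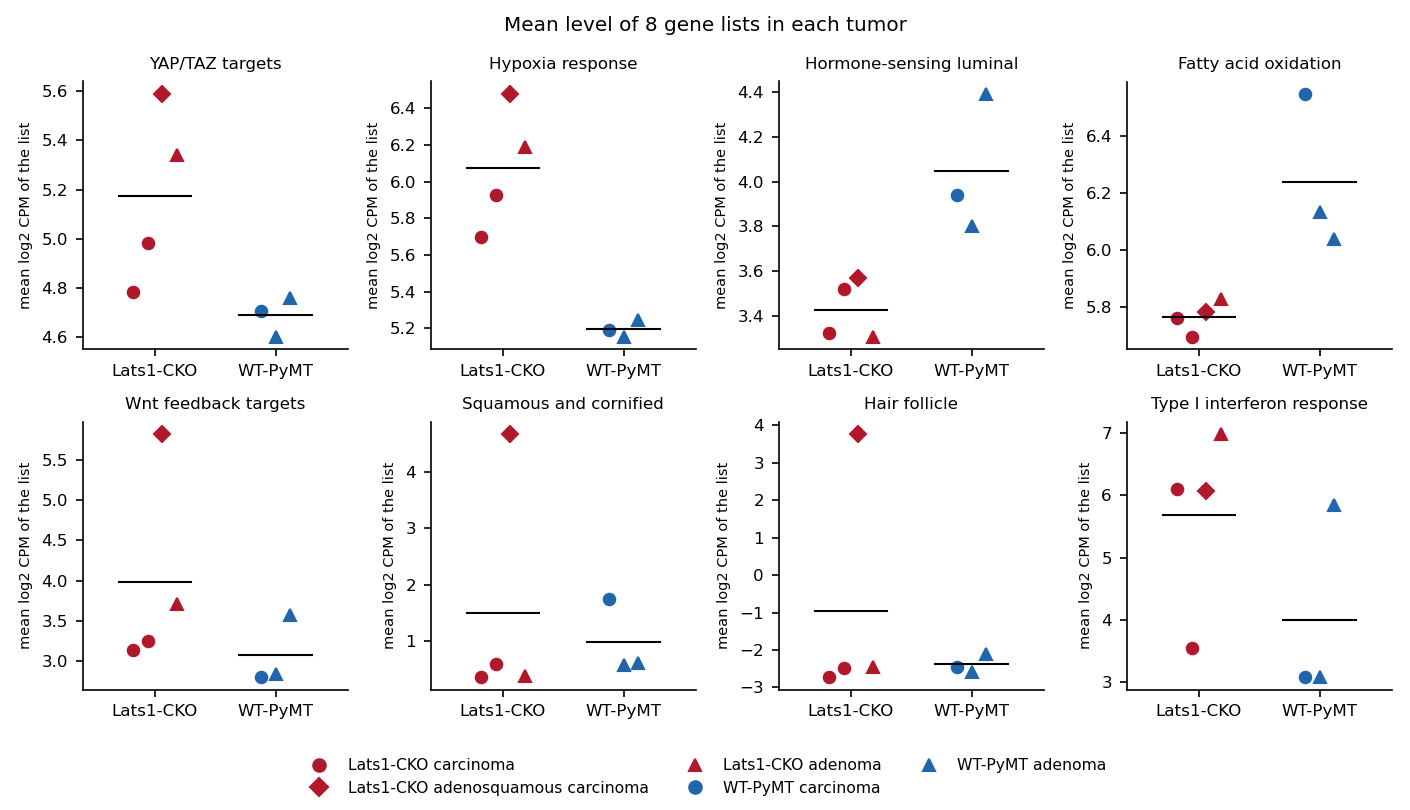
Mean log2 CPM of 8 gene lists in each tumor, with *Lats1*-CKO PyMT tumors left of WT-PyMT tumors. Points are tumors, shapes give histology, lines are group means and the axes do not start at 0. Hypoxia genes were higher and hormone-sensing and fatty acid oxidation genes lower in every *Lats1*-CKO PyMT tumor, whereas the Wnt, squamous and hair follicle lists were high in the adenosquamous tumor and the interferon list was high in 3 *Lats1*-CKO PyMT tumors and in 1 WT-PyMT tumor.

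Genes induced by type I interferon averaged higher in all 22 cases, at a median log2 fold change of 1.70, but only 1 passed a raw p of 0.05. The list's mean was 6.10, 3.55, 6.07 and 6.99 log2 CPM in *Lats1*-CKO PyMT tumors, against 3.08, 3.08 and 5.85 log2 CPM in WT-PyMT tumors. Tumors 14, 21 and 27 and WT-PyMT 22 were high and tumor 18 and WT-PyMT 17 and 20 were low. *Irf7*, a transcription factor of the response, had 299, 59.4, 257 and 485 CPM in *Lats1*-CKO PyMT and 25.8, 30.9 and 186 CPM in WT-PyMT tumors. Without WT-PyMT 22, 20 of the 22 genes were higher at a raw p under 0.05, at a median of 3.28. WT-PyMT 22 was also the tumor with most lymphocyte transcripts. The T and NK cell list averaged 0.46, -0.31, -0.19 and 1.45 log2 CPM in *Lats1*-CKO PyMT tumors, against -0.22, -0.06 and 5.18 log2 CPM in WT-PyMT tumors, and the B and plasma cell list one of -2.33, -2.35, -2.11 and 1.19 log2 CPM in *Lats1*-CKO PyMT tumors, against -1.79, -1.84 and 4.87 log2 CPM in WT-PyMT tumors. The T and NK list summed to 26.1 to 76.3 CPM in *Lats1*-CKO PyMT and 30.6 to 679 CPM in WT-PyMT tumors. *Cd3e*, part of the T cell receptor, had 0.890, 0.761, 0.619 and 2.12 CPM in *Lats1*-CKO PyMT and 0.397, 0.339 and 59.1 CPM in WT-PyMT tumors. The T and NK median of -3.79 was 0.58 without WT-PyMT 22, and no member then differed at a raw p under 0.05.

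Granzymes d, e and g, known from activated lymphocytes and natural killer cells of the uterus, were among the largest differences. Of 10 granzyme and perforin genes 4 were higher and none lower at a raw p under 0.05, and 8 were higher without WT-PyMT 22. T and NK genes were not higher over all 7 tumors. Without both *Lats1*-CKO 21 and WT-PyMT 22, 4 of 13 T and NK genes were higher and none lower, at a median of 0.78. The cells that express these granzymes were not determined. *Gzme* had 4.55, 0.507, 4.38 and 1.92 CPM in *Lats1*-CKO PyMT tumors, against 0, 0.0423 and 0 CPM in WT-PyMT tumors (adjusted p = 5.47e-05 by DESeq2), and *Gzmd* had 8.06, 0.304, 2.63 and 2.37 CPM in *Lats1*-CKO PyMT tumors, against 0.0793, 0.0423 and 0 CPM in WT-PyMT tumors (adjusted p = 2.30e-04 by DESeq2). The carcinoma 14 was the highest for both, and these neighboring genes are similar in sequence, so their reads may be shared. *Gzmb*, the granzyme of cytotoxic lymphocytes, had 2.155, 1.72, 0.774 and 1.26 CPM in *Lats1*-CKO PyMT and 0.476, 0.381 and 2.36 CPM in WT-PyMT tumors.

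All 11 measured neutrophil genes averaged higher, 2 of them at a raw p under 0.05. The list summed to 19.6 to 213 CPM in *Lats1*-CKO PyMT and 14.7 to 25.2 CPM in WT-PyMT tumors, so that the adenosquamous tumor 21 was far above all others. The median log2 fold change of 1.82 was 1.22 without it, with 1 gene at a raw p under 0.05. *S100a9*, a subunit of the calprotectin of neutrophils, had 1.69, 7.61, 17.95 and 4.04 CPM in *Lats1*-CKO PyMT tumors, against 0.317, 0.466 and 0.652 CPM in WT-PyMT tumors (log2 fold change 4.02 ± 0.88, adjusted p = 7.11e-05 by DESeq2). *Cxcl5*, a chemokine that attracts neutrophils, had 1.499, 1.72, 9.75 and 6.92 CPM in *Lats1*-CKO PyMT tumors, against 0.198, 0.212 and 0.0407 CPM in WT-PyMT tumors (log2 fold change 4.997 ± 0.99, adjusted p = 1.38e-05 by DESeq2). Of 14 macrophage genes 1 was lower and none higher at a raw p under 0.05, with *Csf1r*, their growth factor receptor, at 59.1, 63.6, 72.3 and 64.2 CPM in *Lats1*-CKO PyMT and 58.9, 62.4 and 104 CPM in WT-PyMT tumors.

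Stroma and matrix differed in a few genes. *Thbs2*, a matrix glycoprotein that inhibits vessel growth, had 157, 83.1, 256 and 188 CPM in *Lats1*-CKO PyMT tumors, against 58.3, 48.1 and 38.8 CPM in WT-PyMT tumors (log2 fold change 1.82 ± 0.37, adjusted p = 7.16e-05 by DESeq2). *Col12a1*, a collagen on the surface of fibrils, had 194, 118, 534 and 138 CPM in *Lats1*-CKO PyMT tumors, against 57.3, 38.3 and 33.97 CPM in WT-PyMT tumors (log2 fold change 2.51 ± 0.59, adjusted p = 1.69e-04 by DESeq2). The fibroblast list as a whole had a median log2 fold change of -0.54, with *Lum* at 37.95, 14.96, 10.3 and 36.5 CPM in *Lats1*-CKO PyMT and 41.1, 68.9 and 42.5 CPM in WT-PyMT tumors, while *Pdgfra*, a receptor that marks fibroblasts, had 33.8, 31.8, 30.7 and 33.1 CPM in *Lats1*-CKO PyMT tumors, against 18.96, 23.8 and 23.2 CPM in WT-PyMT tumors (adjusted p = 4.92e-04 by DESeq2). Skeletal muscle genes summed to 24.3 to 1086 CPM in *Lats1*-CKO PyMT and 35.3 to 379 CPM in WT-PyMT tumors, *Acta1* with 58.1, 0.507, 297 and 2.17 CPM in *Lats1*-CKO PyMT and 69.0, 4.66 and 0.611 CPM in WT-PyMT tumors. Among genes that respond to handling, *Jun* had 71.6, 77.4, 73.9 and 72.5 CPM in *Lats1*-CKO PyMT tumors, against 96.6, 127 and 134 CPM in WT-PyMT tumors, without overlap (adjusted p = 1.71e-04 by DESeq2), whereas *Fos* had 122, 60.5, 65.2 and 52.0 CPM in *Lats1*-CKO PyMT tumors and 68.4, 102 and 46.8 CPM in WT-PyMT tumors. The part of fat, muscle, immune and handling genes in the other results was not tested beyond the fits named.

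**Figure D5:**
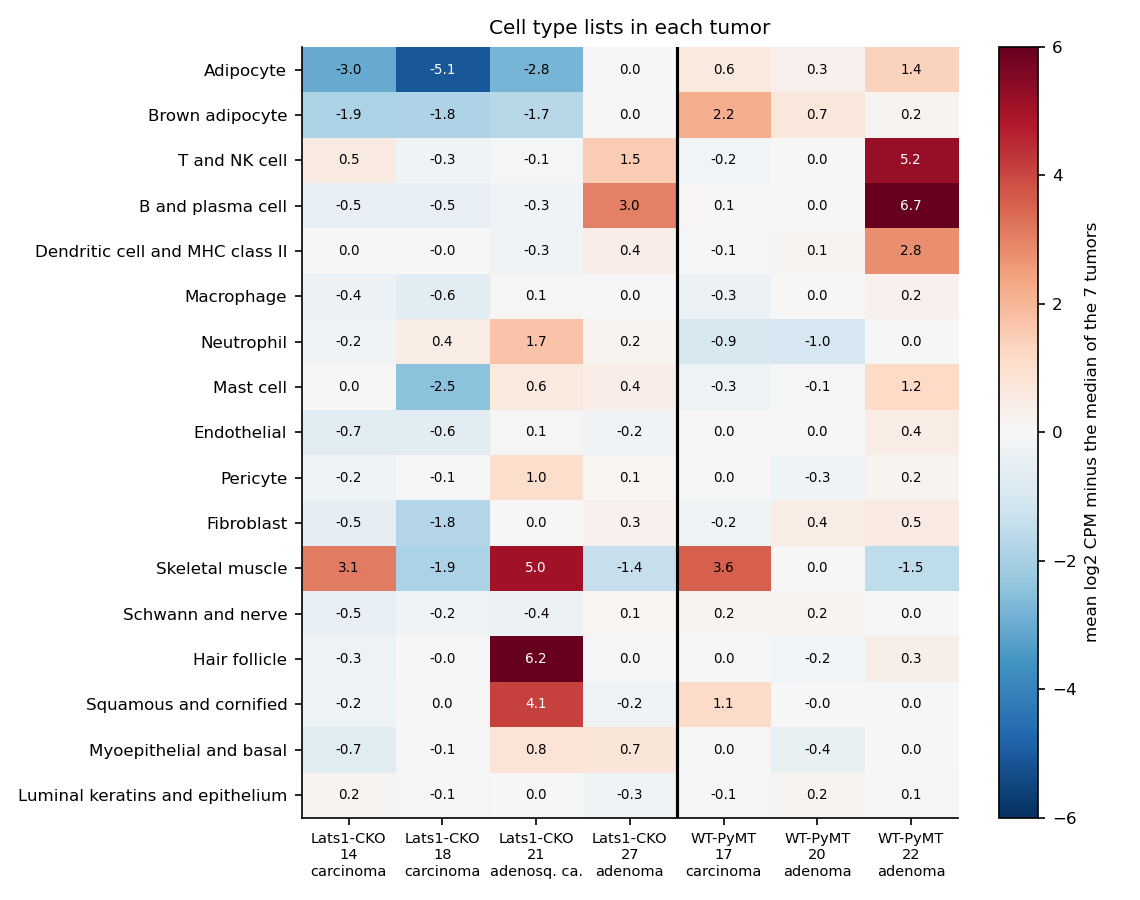
Mean log2 CPM of 17 cell type and epithelial lists in each tumor, minus the median of the 7 tumors, from blue (lower) to red (higher), with the 4 *Lats1*-CKO PyMT tumors left of the 3 WT-PyMT tumors. The adipocyte list was lowest in tumors 14, 18 and 21, the squamous and hair follicle lists were high in tumor 21, lymphocyte lists were high in WT-PyMT 22, and skeletal muscle was high in tumors 14 and 21 and WT-PyMT 17.

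Among the 262 genes that DESeq2 called higher without overlap and at a mean of at least 1 CPM, developmental transcription factors and matrix genes were found beside agouti, *Cntn4* and the granzymes. *Tbx15*, a T-box factor of limb and dermis development, had 279.6, 244, 86.05 and 138 CPM in *Lats1*-CKO PyMT tumors, against 11.1, 10.6 and 4.40 CPM in WT-PyMT tumors. All *Lats1*-CKO PyMT tumors were high, the adenosquamous tumor least (log2 fold change 4.42 ± 0.56, adjusted p = 2.51e-18 by DESeq2 and 0.0909 by edgeR). *Sox11*, a factor of neural and mesenchymal development, had 61.7, 34.2, 10.2 and 24.8 CPM in *Lats1*-CKO PyMT tumors, against 0.992, 1.57 and 0.529 CPM in WT-PyMT tumors (log2 fold change 4.99 ± 0.74, adjusted p = 4.25e-13 by DESeq2).

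*Tnn*, the matrix protein tenascin N, had 12.5, 3.40, 13.2 and 1.46 CPM in *Lats1*-CKO PyMT tumors, against 0.0397, 0.0423 and 0.448 CPM in WT-PyMT tumors (adjusted p = 3.76e-05 by DESeq2). *Col2a1*, the collagen of cartilage, had 4.59, 23.5, 13.9 and 105 CPM in *Lats1*-CKO PyMT tumors, against 1.67, 1.31 and 0.326 CPM in WT-PyMT tumors (log2 fold change 5.05 ± 1.25, adjusted p = 1.38e-05 by DESeq2 and 0.252 by edgeR). Without tumor 27 its log2 fold change was 3.66. The imprinted RNA *H19* had 58.2, 40.9, 196 and 883 CPM in *Lats1*-CKO PyMT tumors, against 15.6, 19.5 and 13.1 CPM in WT-PyMT tumors, and ranged widely among *Lats1*-CKO PyMT tumors with the adenoma 27 highest (log2 fold change 4.20 ± 1.19, adjusted p = 0.00576 by DESeq2 and 0.312 by edgeR). The log2 fold change of *H19* was 2.61 without tumor 27. *Mmp10*, *Pappa*, both proteases, and *Prr27* completed the 15 largest by this rule.

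Among the 283 genes lower by the same rule, *Cdh19*, a cadherin known from Schwann cells, had 1.22, 4.97, 0.516 and 4.80 CPM in *Lats1*-CKO PyMT tumors, against 33.5, 51.6 and 39.7 CPM in WT-PyMT tumors, with no overlap (log2 fold change -3.85 ± 0.73, adjusted p = 5.37e-06 by DESeq2). *Slc27a2*, a fatty acid transporter, had 0.187, 0.152, 0.0516 and 0.404 CPM in *Lats1*-CKO PyMT tumors, against 4.76, 1.86 and 1.87 CPM in WT-PyMT tumors (log2 fold change -3.79 ± 0.68, adjusted p = 1.56e-04 by DESeq2). *Olah*, which releases medium-chain fatty acids for milk fat, had 0.703, 0.355, 0.568 and 0.202 CPM in *Lats1*-CKO PyMT tumors, against 6.86, 8.59 and 0.896 CPM in WT-PyMT tumors (log2 fold change -3.56 ± 0.79, adjusted p = 0.00129 by DESeq2). *Tph1*, the enzyme of serotonin synthesis, had 0.187, 1.47, 0.413 and 0.151 CPM in *Lats1*-CKO PyMT and 4.68, 27.4 and 2.40 CPM in WT-PyMT tumors, and *Irf4*, a lymphocyte factor, had 0.187, 0.0507, 0.258 and 1.46 CPM in *Lats1*-CKO PyMT tumors and 1.90, 2.75 and 17.6 CPM in WT-PyMT tumors. The others were *Bpifa2*, *Glycam1*, *Gys2*, *Soga3*, *Gm6484*, *Clstn3*, *Kcnk3*, *Pik3c2g*, *Mospd4* and *2310057J18Rik*.

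The change in *Lats1*-CKO PyMT tumors was finally set against that in *Lats2*-CKO PyMT tumors, with their own WT-PyMT littermates, in a model over 14 libraries and 17232 genes. In this difference edgeR called 2 genes higher (0.0116%) and 1 lower (0.0058%), while 339 were higher (1.97%) and 206 lower (1.2%) at a raw p under 0.05. The gene called lower was *Lats1*, whose difference in log2 fold change was -1.85 ± 0.17. The 2 called higher are not identified here. Of 27 YAP/TAZ targets 1 differed at a raw p under 0.05. It was *Lats2*, the gene deleted in *Lats2*-CKO PyMT tumors, so its difference follows from the design. Of 12 milk protein genes 5 differed at a raw p under 0.05, all lower in the *Lats1* comparison and none called after adjustment. *Wap* had a log2 fold change of -1.82 in *Lats1*-CKO PyMT and 4.41 in *Lats2*-CKO PyMT tumors (unadjusted p = 0.0159 from edgeR's model). *Cyr61* and *Ddah1* had log2 fold changes of 1.05 and 1.41 in *Lats1*-CKO PyMT, and of 0.99 and 1.58 in *Lats2*-CKO PyMT tumors (differences of 0.09 ± 0.70 and -0.14 ± 1.17). *Cdh19* had a log2 fold change of -3.85 in *Lats1*-CKO PyMT, against 0.47 in *Lats2*-CKO PyMT tumors. This difference had an unadjusted p of 0.00204 from edgeR's model and was not called after adjustment.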

How the data were processed

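RNA was isolated from pieces of mammary tumor with the NucleoSpin or the RNeasy kit, and the labels do not say which tumor had which. According to the labels and the study's methods, 500 ng of total RNA per tumor went into TruSeq v2 polyA libraries, which do not mark strand, and 7 libraries shared a lane of 60-bp single-end reads. The authors aligned the reads with STAR (version not given in the sources used here) to mm10 and deposited whole-number counts per RefSeq gene. The study kept genes with at least 5 counts, and the lowest row sum found here was 6. Reads of overlapping, antisense or near-identical genes therefore cannot be assigned with certainty.

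Groups came from the labels, and each library is 1 tumor of 1 mouse. edgeR 4.0.16 (R 4.3.3) was run on all 17763 deposited genes of the 7 libraries, with TMM scaling, the quasi-likelihood test and Benjamini-Hochberg adjustment at 0.05. The standard error is the log2 fold change over the square root of F. DESeq2 1.42.0, the study's tool, was an alternative, as were other scalings, filterByExpr, a robust fit, covariates (histology, or the adipocyte mean), a joint fit of all 14 libraries and omission of each library in turn. The difference between genotypes was tested in a fit over both experiments. Steps were tested on simulated data. For list means log2 CPM used a prior count of 2. Of the genes, 17713 were placed on RefSeq's GRCm38.p6 annotation by name, and promoters came from the same source.

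Named are the genes called by edgeR, the 15 largest differences in each direction among DESeq2 calls without overlap and at a mean of at least 1 CPM, the Hippo and TEAD genes, up to 6 members of each other list by smallest p with up to 8 defining markers, and genes that the study's text names. The 45 written lists, the 8 lists taken from the study and the members described were chosen with earlier results of these data known. Columns of other series numbered 0. P-values measure the spread between these tumors. Some members of the lists are counted but not reported here by name.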

Additional observations from a re-analysis of the deposited data

Results flagged for a closer look

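Of 78 values checked within the 4 *Lats1*-CKO PyMT tumors, 6 had a single tumor far from the other 3, and chance flags about 1 in 20 such groups. The squamous list averaged 4.68 log2 CPM in the adenosquamous tumor 21, and the hair follicle list averaged 3.77 log2 CPM there, while tumors 14, 18 and 27 lay near each other on both lists. The adenoma 27 stood apart with a brown adipocyte mean of 2.51 log2 CPM and a B and plasma cell mean of 1.19 log2 CPM. *Bpifa2*, a secreted protein known from salivary gland, had -2.82 log2 CPM in tumor 27, which stands for 1 count against none in tumors 14, 18 and 21. *Pik3c2g*, a lipid kinase, had 0.14 log2 CPM in the carcinoma 18, above the other 3.

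The change of *Lats1* in *Lats1*-CKO PyMT tumors differed from that in *Lats2*-CKO PyMT tumors by -1.85 on the log2 scale, by the test of the difference itself (adjusted p = 0.00195 by edgeR). It is the gene deleted in the first of these genotypes.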

How the results depend on the processing

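No called result reversed under any alternative run. Of the medians of 53 gene lists, 11 changed sign without *Lats1*-CKO 21, 9 without WT-PyMT 22, 3 without *Lats1*-CKO 14, 1 without 18, 3 without 27, 2 without WT-PyMT 17 and none without WT-PyMT 20. With the adipocyte covariate 9 did, with histology 3, with filterByExpr 2 and without both *Lats1*-CKO 21 and WT-PyMT 22 12. Against 1 gene called higher and 3 lower by edgeR, DESeq2 called 287 and 299, filterByExpr gave 3 higher, histology as a covariate 2 higher, the adipocyte mean as a covariate 0 and 0, and all 14 libraries in 1 fit 0 and 1. Leaving out 1 library gave 0 to 8 higher (8 without *Lats1*-CKO 21, 2 without 14, 0 without 27, WT-PyMT 17 or WT-PyMT 20) and 0 to 11 lower (11 without *Lats1*-CKO 21, 1 without 14 or 27, 0 without WT-PyMT 17 or 20). Leaving out both *Lats1*-CKO 21 and WT-PyMT 22, chosen after seeing the data, gave 3 higher. At an unadjusted p under 0.05 the fit of all 14 libraries had 558 higher and 522 lower, and leaving out 1 library gave 547 to 1092 higher and 703 to 1246 lower. The *Lats1* log2 fold change was -1.89 with the adipocyte covariate, where it lost its call (adjusted p = 0.0687 by edgeR), and -1.82 to -1.68 without 1 library (adjusted p of 0.00855 to 0.0640 by edgeR). *Tead2* and agouti lost their calls with the adipocyte covariate and in the fit of all 14 libraries (adjusted p = 0.0687 and 0.783 by edgeR for each). *Lyn* lost its own in both of these (0.211 and 0.783 by edgeR), and with RLE or upper-quartile scaling (adjusted p = 0.0536 and 0.0599 by edgeR) and with histology (0.171). In the difference between genotypes DESeq2 called 7 higher and 9 lower, against 2 and 1 by edgeR. The causes of these changes were not tested, and omission of a library also left fewer samples. Over named genes and alternatives, 1228 values kept their side of the threshold (27 of these, in 12 genes not called by edgeR, changed sign, such as *Krt14* and *Krt5* without *Lats1*-CKO 21), 51 gained a call and 28 lost one, and of list medians 482 moved by less than the spread and 30 by more. The study compared littermates, but the labels do not say which tumors came from the same litter. Litter was therefore not modeled, and no paired analysis was made.

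Depth limits genes near 1 CPM or below, such as the granzymes, most, where a few counts decide a fold change. Tumor histology, fat, muscle and lymphocyte transcripts were uneven between the groups.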

Other observations

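A few further groups differed in single members. Of 15 genes of epithelial-mesenchymal transition 2 were higher and none lower at an unadjusted p under 0.05, and 1 was higher without WT-PyMT 22. *Snai1*, a repressor of E-cadherin, had 8.20, 5.32, 7.27 and 6.76 CPM in *Lats1*-CKO PyMT tumors, against 2.90, 4.91 and 3.46 CPM in WT-PyMT tumors (log2 fold change 0.87 ± 0.29, adjusted p = 0.0597 by DESeq2). *Krt7*, a simple epithelial keratin, had 168, 148, 265 and 167 CPM in *Lats1*-CKO PyMT and 103, 109.5 and 132 CPM in WT-PyMT tumors (log2 fold change 0.70 ± 0.21, adjusted p = 0.0561 by DESeq2), while the other 10 luminal keratin and junction genes did not pass an unadjusted p of 0.05. Of 13 genes of dendritic cells and MHC class II 3 were lower at that level, and none without WT-PyMT 22.

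Among p53 targets, *Eda2r*, a receptor of the tumor necrosis factor family, had 9.70, 2.89, 5.98 and 4.39 CPM in *Lats1*-CKO PyMT and 1.86, 2.71 and 1.96 CPM in WT-PyMT tumors (log2 fold change 1.40 ± 0.45, adjusted p = 0.0709 by DESeq2). *Gli3*, a transcription factor of the Hedgehog pathway, had 6.65, 5.02, 7.79 and 16.3 CPM in *Lats1*-CKO PyMT tumors, against 3.81, 3.09 and 1.67 CPM in WT-PyMT tumors (log2 fold change 1.64 ± 0.50, adjusted p = 0.0368 by DESeq2).

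*Rpl29*, a ribosomal protein gene that was chosen after its values were seen, had 30, 910, 1007 and 786 counts in *Lats1*-CKO PyMT tumors, against 41, 23 and 33 counts in WT-PyMT tumors. Tumor 14 was at the level of the WT-PyMT tumors and the other 3 *Lats1*-CKO PyMT tumors were far above it. Ribosomal protein genes have near-identical copies that can share reads, so these counts are uncertain.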
